A study of Mus musculus with 79 samples.

Results

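The nuclear genes for the subunits of oxidative phosphorylation, together with the assembly factors of complex I, were followed across mouse lungs exposed to cigarette smoke. Members were the genes whose symbol starts with Nduf, Uqcr, Atp5 or Cox4 to Cox8, or is Sdha, Sdhb, Sdhc, Sdhd or Cyc1, with the row of highest mean taken for each gene. The rule found 82 rows for 81 genes among the 31350 rows of the expression table, of which 21837 rows could be paired with a gene symbol. Complex I gave 29 genes, its assembly factors 8, complex II 3, complex III 9, complex IV 19 and complex V 13. Another 16 protein-coding genes that meet the rule had no paired row, Sdha, Ndufab1 and Cox7c among them, and none of the 13 subunits encoded by mitochondrial DNA was paired with a row, so both are not analysed here. A further 19 pseudogenes carry such names, and the array signal of a member cannot be told apart from that of a transcribed near-identical copy.

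The study asked how short smoke exposure changes the lung of healthy mice and of mice with inflamed airways. RNA from homogenised whole right lung of 79 mice was hybridised to Affymetrix arrays, all on 1 plate, and 1 further array had been removed as mislabelled before deposit. Mice were wild-type (WT) C57BL/6J animals or their βENaC littermates, which overexpress Scnn1b, a subunit of the epithelial sodium channel, from a transgene driven in airway epithelium and have airway inflammation from early life. They were 5 to 7 weeks old and of both sexes. Smoke-exposed mice breathed smoke from 6 reference cigarettes a day with the filters removed, for 1 day or for 5 consecutive days, sham-exposed mice breathed room air in the same chamber, and lungs were taken 4 hours after the last exposure. Genotype, exposure, sex and duration made 16 groups of 4 to 6 mice. The 1-day arms held 20 mice each, the 5-day sham arm held 20 and the 5-day smoke arm 19. The source entry of 13 WT smoke-exposed mice calls them βENaC, against their titles and genotype entries, which were used here. Scnn1b itself lay between 11.52 and 11.88 in the βENaC mice and between 8.42 and 9.47 in the WT mice on the log2 scale, with no overlap. The surfactant gene Sftpc, a marker of alveolar type 2 cells, ranged from 12.51 to 12.78 over the mice, with a median of 12.66.

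Oxidative phosphorylation takes electrons from NADH through complex I and from succinate through complex II, passes them by way of ubiquinone to complex III and by way of cytochrome c to complex IV, where oxygen is reduced, and uses the resulting proton gradient to make ATP at complex V. Most subunits are encoded in the nucleus and made in every cell, in amounts that are highest in heart, skeletal muscle and brown fat. Several subunits of complex IV also exist as tissue isoforms: Cox6a2, Cox7a1 and Cox8b belong to heart and muscle, Cox4i2 is known as the lung isoform, and Cox6b2, Cox7b2 and Cox8c are known from testis. All values below are log2 intensities after robust multi-array averaging (RMA). A coefficient is the fitted log2 difference between groups from a limma model with genotype, exposure and sex, made for each duration, and a gene is called where its p, adjusted by Benjamini-Hochberg over all 31350 rows, is under 0.05.

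After 1-day exposure, 7 members were lower in smoke-exposed than in sham-exposed mice and none was higher. They were 4 subunits of complex I (Ndufs6, Ndufs1, Ndufa9 and Ndufc2), 2 of its 8 assembly factors (Ndufaf8 and Ndufaf7) and 1 subunit of complex IV (Cox7b). Of all rows, 4.43% were called lower and 5.03% higher in this comparison, against 7 and 0 of 81 members. The changes were small, between 6.31% and 12.5% of the sham level, and no called member exceeded the 1.3-fold threshold of the study here, at 5 days, or for genotype or sex. Of all rows, 1.08% and 1.16% were called and over 1.3-fold for exposure at 1 and 5 days, 1.55% and 2.53% for genotype, 0.845% and 0.198% for sex, and 0.53% for the difference of the exposure coefficient between durations. Coefficients of 64 of the 81 members were negative, and their median was -0.046, against 0.010 over all rows. All rows include 9513 without a gene symbol. By mean signal, 78 of the 81 members lay above the median of all rows and 57 lay in the top 25%. Rows of similar signal were not compared separately, here or below, so the part of signal level in differences from all rows was not tested. In a whole lung, fewer cells of a type and less RNA per cell cannot be told apart.

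Ndufaf8, an assembly factor of complex I, had the lowest adjusted p. Its level ran from 5.92 to 6.69 in the sham-exposed mice, with a median of 6.24, and from 5.84 to 6.25 in the smoke-exposed mice, with a median of 6.05. In all, 10 of 20 sham-exposed mice were above every smoke-exposed mouse, and 18 of 20 smoke-exposed mice were below the sham mean of their own genotype and sex, although the groups overlapped. Ndufaf8 fell by 0.18 (SE 0.048, limma, adjusted p = 0.011). The mean difference between smoke-exposed and sham-exposed mice was -0.31 in βENaC females, -0.18 in βENaC males, -0.13 in WT females and -0.11 in WT males.

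Ndufs6, an accessory subunit at the base of the NADH-oxidising arm of complex I, ranged from 8.95 to 9.59 in the sham-exposed mice, with a median of 9.36. In the smoke-exposed mice it ranged from 9.03 to 9.35, with a median of 9.18. All 20 smoke-exposed mice were below the sham mean of their own genotype and sex, and 11 sham-exposed mice were above all of them, while 1 was below all of them. Ndufs6 fell by 0.14 (SE 0.042, limma, adjusted p = 0.024), and the difference was negative in all 4 combinations of genotype and sex, from -0.18 to -0.08. The gene has a second, dimmer row, and the mean of both rows gave a coefficient of -0.08 that was not called (limma, adjusted p = 0.151).

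Ndufs1, the large core subunit that carries iron-sulfur clusters of complex I, had sham values of 8.33 to 8.73 and smoke values of 8.27 to 8.67 at 1 day. The medians were 8.49 and 8.38, and 18 of 20 smoke-exposed mice were below the sham mean of their own genotype and sex. Ndufs1 fell by 0.10 (SE 0.031, limma, adjusted p = 0.034). Cox7b, a widely used subunit of complex IV, ranged from 9.40 to 10.07 in sham-exposed and from 9.26 to 9.85 in smoke-exposed mice, with medians of 9.80 and 9.51. It had the largest coefficient of the 7, -0.19 (SE 0.061, limma, adjusted p = 0.038), but 16 rather than 18 or 20 of the smoke-exposed mice were below their own sham mean, and in βENaC females the difference was 0.03. The accessory subunits Ndufa9 and Ndufc2 fell by 0.10 and 0.09, and the assembly factor Ndufaf7 by 0.13, with limma adjusted p of 0.040, 0.030 and 0.032. For each of these 3 genes 18 of 20 smoke-exposed mice were below their own sham mean, and smoke and sham ranges overlapped for all 7 genes.

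By complex, the median coefficient at 1 day was -0.09 for the 8 assembly factors, -0.053 for the 29 subunits of complex I, -0.050 for complex IV, -0.045 for complex II, -0.031 for complex V and -0.0068 for complex III. Of the 29 complex I subunits 25 had negative coefficients, as had 12 of 13 subunits of complex V. Complex III stood nearest to 0, and its median turned to 0.0077 with the level of cardiac muscle RNA in the model. In complex II the coefficients of Sdhb, the iron-sulfur subunit, and of the membrane anchors Sdhc and Sdhd were -0.07, -0.05 and -0.0026, and none was called. The catalytic beta subunit of complex V, Atp5b, had a coefficient of -0.04 and the flavin subunit Ndufv1 of -0.03. The widely used complex IV subunits Cox4i1, Cox5a and Cox8a had -0.02, -0.08 and -0.02. None of these was called.

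Neighbouring mitochondrial gene lists were read in the same comparison. Of 17 enzymes of the tricarboxylic acid cycle 1 was called lower and the median coefficient was -0.019. The 59 proteins of the mitochondrial ribosome had a median of -0.0049 with 1 called higher and 2 lower, the 34 assembly factors outside the rule a median of -0.028 with 2 lower, and the 11 regulators of mitochondrial biogenesis a median of -0.052 with 1 higher. Markers of other cells were read beside them. All 5 markers of ciliated cells had negative coefficients (median -0.12, 2 called lower), and the mean of the list, centred per gene, lay between -0.43 and 0.06 in smoke-exposed and between -0.30 and 0.24 in sham-exposed mice. All 4 neutrophil markers also had negative coefficients (median -0.48, 1 called lower), with list means of -1.04 to 0.95 against -0.83 to 2.01. The part of these cells in the members' values was not tested.

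**Figure D1:**
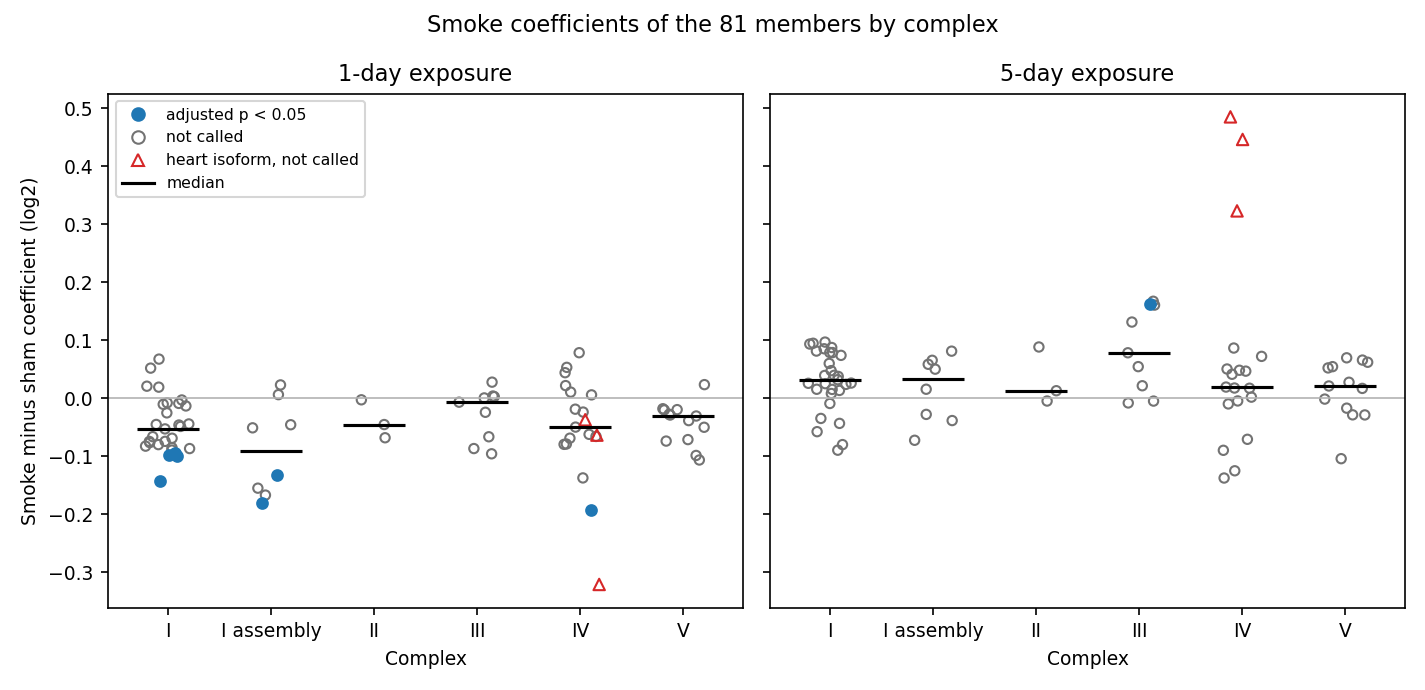
Smoke minus sham coefficient (log2, y axis) of each of the 81 members by complex, at 1 day on the left and at 5 days on the right. Filled points are called, open points are not, triangles are the heart isoforms Cox6a2, Cox7a1 and Cox8b (none called), and bars are medians. The 7 called members at 1 day lie between -0.19 and -0.09, and the only one at 5 days, Uqcr10 of complex III, lies at 0.16. Medians of complexes I, II, III, IV and V at 5 days turned negative when 7 mice rich in muscle RNA were left out, the 5-day ones among them all smoke-exposed.

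Promoters are shown for the called members Ndufs6, Ndufaf8 and Uqcr10. Beside them stand a widely used and a heart isoform of complex IV, neither called for exposure. Each sequence is the 250 bases before the RefSeq transcription start on assembly GRCm38.p6, read 5′ to 3′ on the strand of the gene. Capitals mark matches to an NRF1 motif (GCGCA and GCGC with any 1 base between them) or an ETS motif (CCGGAAG, the core bound by GABP), on either strand. The windows are chr13:73328483-73328732 (minus strand) for Ndufs6, chr11:120098684-120098933 (plus strand) for Ndufaf8, chr11:4704345-4704594 (minus strand) for Uqcr10, chr5:115348959-115349208 (minus strand) for Cox6a1 and chr7:140900447-140900696 (minus strand) for Cox8b.
Ndufs6: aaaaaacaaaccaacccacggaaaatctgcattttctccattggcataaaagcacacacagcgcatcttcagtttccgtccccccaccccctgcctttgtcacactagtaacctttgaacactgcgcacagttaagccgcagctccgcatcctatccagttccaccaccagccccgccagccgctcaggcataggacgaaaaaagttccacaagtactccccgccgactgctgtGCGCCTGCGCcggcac
Ndufaf8: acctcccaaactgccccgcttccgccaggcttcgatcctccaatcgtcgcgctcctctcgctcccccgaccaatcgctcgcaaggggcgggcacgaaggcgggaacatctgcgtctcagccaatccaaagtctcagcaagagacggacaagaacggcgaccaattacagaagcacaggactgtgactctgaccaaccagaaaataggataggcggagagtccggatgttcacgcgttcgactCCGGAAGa
Uqcr10: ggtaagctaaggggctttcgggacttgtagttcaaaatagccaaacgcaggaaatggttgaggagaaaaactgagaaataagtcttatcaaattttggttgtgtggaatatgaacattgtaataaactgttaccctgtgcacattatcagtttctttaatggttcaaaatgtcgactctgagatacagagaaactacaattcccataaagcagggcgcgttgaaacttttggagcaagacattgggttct
Cox6a1: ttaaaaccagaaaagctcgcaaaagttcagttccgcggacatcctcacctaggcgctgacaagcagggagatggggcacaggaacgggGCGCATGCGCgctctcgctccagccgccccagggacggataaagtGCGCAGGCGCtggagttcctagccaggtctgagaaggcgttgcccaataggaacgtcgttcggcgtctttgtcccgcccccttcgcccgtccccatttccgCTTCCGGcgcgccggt
Cox8b: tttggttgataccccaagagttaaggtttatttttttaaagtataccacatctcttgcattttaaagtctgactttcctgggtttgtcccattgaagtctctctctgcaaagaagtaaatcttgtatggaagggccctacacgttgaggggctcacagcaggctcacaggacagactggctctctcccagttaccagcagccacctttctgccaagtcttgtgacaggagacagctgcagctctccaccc
Ndufs6 has its NRF1 match at bases 16 to 7 before the start and Ndufaf8 its ETS match at bases 8 to 2. Cox6a1, the widely used isoform of subunit 6A, has 2 NRF1 matches, at 162 to 153 and 117 to 108, and an ETS match at 16 to 10. The windows of Uqcr10 and Cox8b hold neither set of letters. Cox6a1 is not typical of the widely used genes of complex IV. Of 9 complex IV genes outside the tissue isoforms that had a window, 1 held the NRF1 motif and 2 the ETS motif. Of the 4 tissue isoforms with a window, 0 held either motif. Neither motif was found in the windows of Ndufa9, Ndufc2, Ndufaf7 and Cox7b, which were also lower at 1 day and are not shown. Windows were available for 63 of the 81 members, and none was available for Ndufs1, Cyc1, Cox4i2, Ndufa4l2 or Cox6a2, among others.

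Over these 63 members, 19.0% held the NRF1 motif and 19.0% the ETS motif, 12 genes each, against 4.23% and 7.83% of the 27025 genes with a window. The ERR motif TCAAGGTCA was in 1.59% of members against 0.422% of all genes, the TATA box TATAAA in 9.52% against 14.3%, the E-box CACGTG in 7.94% against 6.86%, and the MEF2 motif CTAAAAATA in none of the members against 0.537%. These motifs were searched on both strands, and none of them contains another. The median GC content was 56.8% in the members' windows and 52.4% in all windows. A match is a description of the letters and not a measured binding site.

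After 5-day exposure, Uqcr10, a small subunit of complex III, was the only member called, and it was higher in the smoke-exposed mice. Of all rows 3.17% were called higher and 3.37% lower, against 1 and 0 of 81 members. Uqcr10 lay between 6.05 and 6.84 in the sham-exposed mice (median 6.50) and between 6.37 and 6.98 in the smoke-exposed mice (median 6.62). Of 19 smoke-exposed mice 16 were above the sham mean of their own genotype and sex, 2 were above every sham-exposed mouse, and the ranges overlapped. Uqcr10 rose by 0.16 (SE 0.047, limma, adjusted p = 0.026), or 11.9%, with differences of 0.14, 0.20, 0.23 and 0.06 in βENaC females, βENaC males, WT females and WT males. At 1 day its coefficient was 0.00049 (SE 0.052), with medians of 6.34 in sham-exposed and 6.38 in smoke-exposed mice.

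Unlike at 1 day, most coefficients were positive. They were so for 58 of 81 members, with a median of 0.028 against -0.0018 over all rows, and the median was 0.078 for complex III. All 7 core subunits of complex I had positive coefficients (median 0.074), none called. Cytochrome c1 (Cyc1) had a coefficient of 0.16 and the Rieske iron-sulfur protein Uqcrfs1 of 0.13, neither called. The largest coefficients belonged to the heart isoforms, 0.49 for Cox8b, 0.45 for Cox7a1 and 0.32 for Cox6a2, with limma adjusted p of 0.231, 0.153 and 0.145. The lowest coefficient was -0.14 for Cox5b, a widely used subunit of complex IV, while the lung isoform Cox4i2 and the hypoxia-inducible Ndufa4l2 had -0.07 and -0.13, none of them called. The Cox5b row had a mean of 4.11 over all mice, below the lowest array median of 4.44. Its coefficient therefore says little about the level of this subunit.

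**Figure D2:**
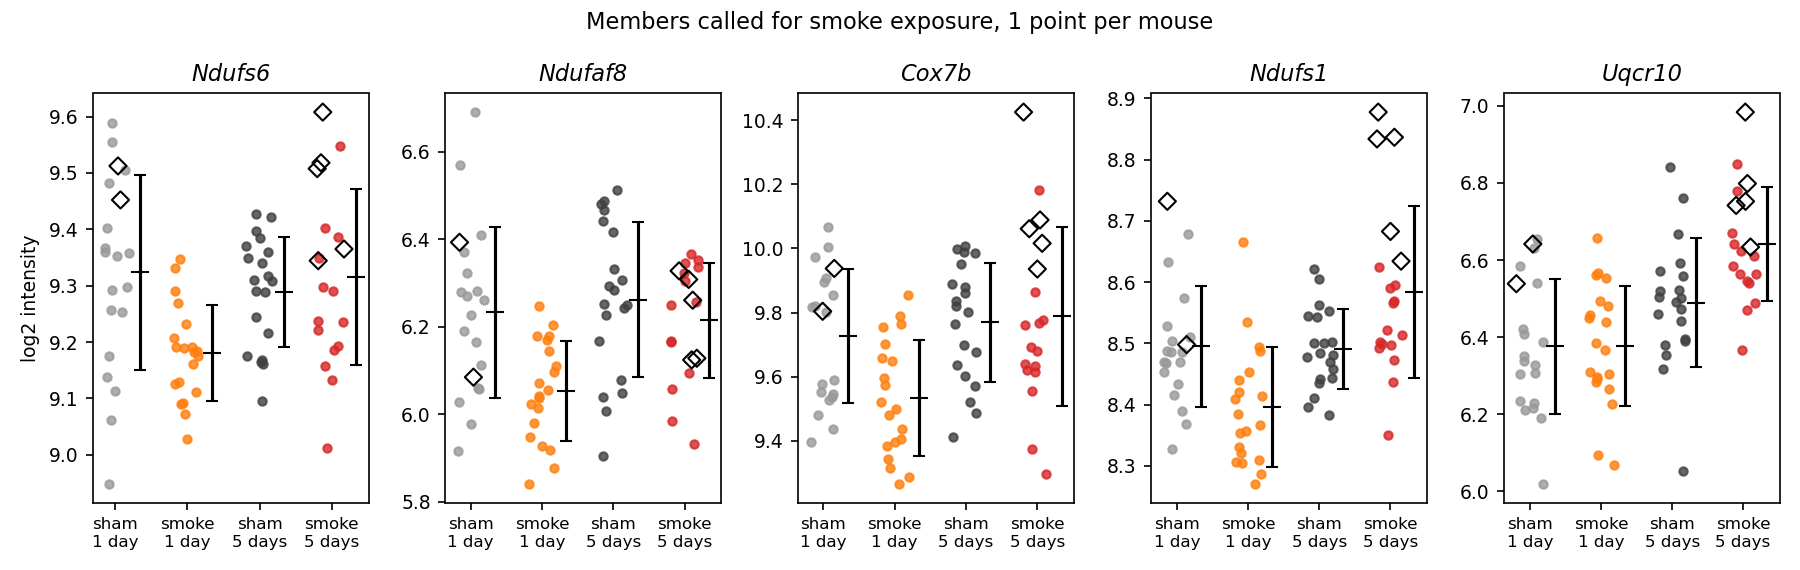
Log2 intensity (y axis) of Ndufs6, Ndufaf8, Cox7b, Ndufs1 and Uqcr10 in each mouse, by exposure and duration (x axis); bars give the mean and SD of each arm. Diamonds are the 7 mice whose cardiac or skeletal muscle marker mean was above 1. Ranges of smoke-exposed and sham-exposed mice overlap in each panel, and at 5 days the diamonds lie in the upper part of the smoke arm for Ndufs1, where they take the 5 highest values, but are spread over it for Ndufaf8.

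Whether the response differed between durations was tested in 1 model over all 79 mice. The 5-day coefficient exceeded the 1-day coefficient for 70 of 81 members (median difference 0.085, against -0.011 over all rows), and 1 member was called, with 0.724% of all rows called in this direction and 0.762% in the other. This was Ndufs1, whose smoke coefficient was -0.10 at 1 day and 0.09 at 5 days, a difference of 0.19 (SE 0.047, limma, adjusted p = 0.015). At 5 days Ndufs1 ranged from 8.38 to 8.62 in sham-exposed mice and from 8.35 to 8.88 in smoke-exposed mice, with medians of 8.48 and 8.57. Of 19 smoke-exposed mice 15 were above their own sham mean and 6 were above all sham-exposed mice. The next members by size of the difference were not called: 0.81 for Cox8b, 0.48 for Cox7a1 and 0.39 for Cox6a2, with limma adjusted p of 0.136, 0.354 and 0.260. Between sham-exposed mice of the 2 durations limma called no member and 0.0766% of all rows, while 19 members had an unadjusted p under 0.05, against 11.7% of all rows. Day of harvest and duration cannot be told apart in this comparison. For the interaction of exposure with genotype limma called no member at either duration, and 0.00638% of all rows at 1 day and 0% at 5 days. Unadjusted p was under 0.05 for 4 members at 1 day and 1 at 5 days, against 6.98% and 3.82% of all rows. For the interaction with sex the calls were again 0 of 81 members, with 0.00638% and 0% of all rows, and 3 and 2 members had an unadjusted p under 0.05, against 6.33% and 3.46% of all rows.

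The lungs also differed in muscle RNA. In mice the walls of the pulmonary veins hold cardiac muscle cells. The mean of 9 cardiac muscle markers, centred per gene, ranged from -0.58 to 0.59 in the 5-day sham-exposed mice and from -0.63 to 1.90 in the 5-day smoke-exposed mice, and all 9 markers had positive coefficients (median 0.36, 1 called higher). In 7 mice the mean of the cardiac or of the skeletal muscle markers was above 1, and 5 of these were in the 5-day smoke arm. They were WT female replicates 3 and 4, WT male replicate 2, βENaC female replicate 5 and βENaC male replicate 4, while the other two were WT sham-exposed males of the 1-day arm, replicates 4 and 5. Skeletal muscle markers were high in only 2 of the 7, with means of 5.63 in WT female replicate 4 of the 5-day smoke arm and 5.30 in WT male replicate 4 of the 1-day sham arm.

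The same mice were among the highest for the respiratory chain. Over 65 subunits, without tissue isoforms and assembly factors, the mean of centred values was 0.03 ± 0.06 (SD, n = 20) in sham-exposed and 0.06 ± 0.13 (n = 19) in smoke-exposed mice at 5 days. The 5 mice held ranks 1, 2, 4, 5 and 6 of 19 in the smoke arm, with means of 0.31, 0.27, 0.17, 0.16 and 0.14. Rank 3, at 0.23, was βENaC female replicate 3, whose cardiac marker mean of -0.63 was the lowest of that arm. Without them the smoke-exposed mean was 0.0045 ± 0.091 (n = 14). At 1 day the means were -0.02 ± 0.10 in sham-exposed and -0.06 ± 0.07 in smoke-exposed mice (n = 20 each), and -0.03 ± 0.10 (n = 18) in sham-exposed mice without the 2 muscle-rich ones. Those 2 held ranks 2 and 3 of 20, at 0.13 and 0.12, below βENaC male replicate 1 at 0.15. At 1 day this mean ranged from -0.26 to -0.00077 in the smoke-exposed and from -0.22 to 0.15 in the sham-exposed mice.

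Leaving out the 7 mice, a step chosen after seeing the data, removed most calls for exposure. At 5 days the mice left out were all smoke-exposed and among the highest for the chain, so the step itself lowers the smoke coefficients. The part of muscle RNA in the 5-day coefficients cannot be told apart from that of smoke. Uqcr10 at 5 days had a coefficient of 0.12 (limma, adjusted p = 0.187) and the Ndufs1 difference between durations was 0.10 (limma, adjusted p = 0.231). The median coefficient of all members at 5 days was -0.021, and the median difference between durations 0.0087. At 1 day Ndufaf8 alone was still called, with a coefficient of -0.17 (limma, adjusted p = 0.023). The other 6 coefficients, from -0.17 for Cox7b to -0.08 for Ndufs1, had limma adjusted p between 0.050 and 0.097. With all mice Cox7b had -0.19 and Ndufs1 -0.10, and the fit without the 7 mice also held fewer mice. The median over the members was -0.025. With the cardiac marker mean as a term in the model and all mice kept, the median of the members was -0.033 at 1 day and -0.0050 at 5 days, and 5 of the 7 members stayed called at 1 day. Complex I assembly factors changed least between these fits, from -0.09 in each at 1 day to between 0.01 and 0.03 at 5 days.

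**Figure D3:**
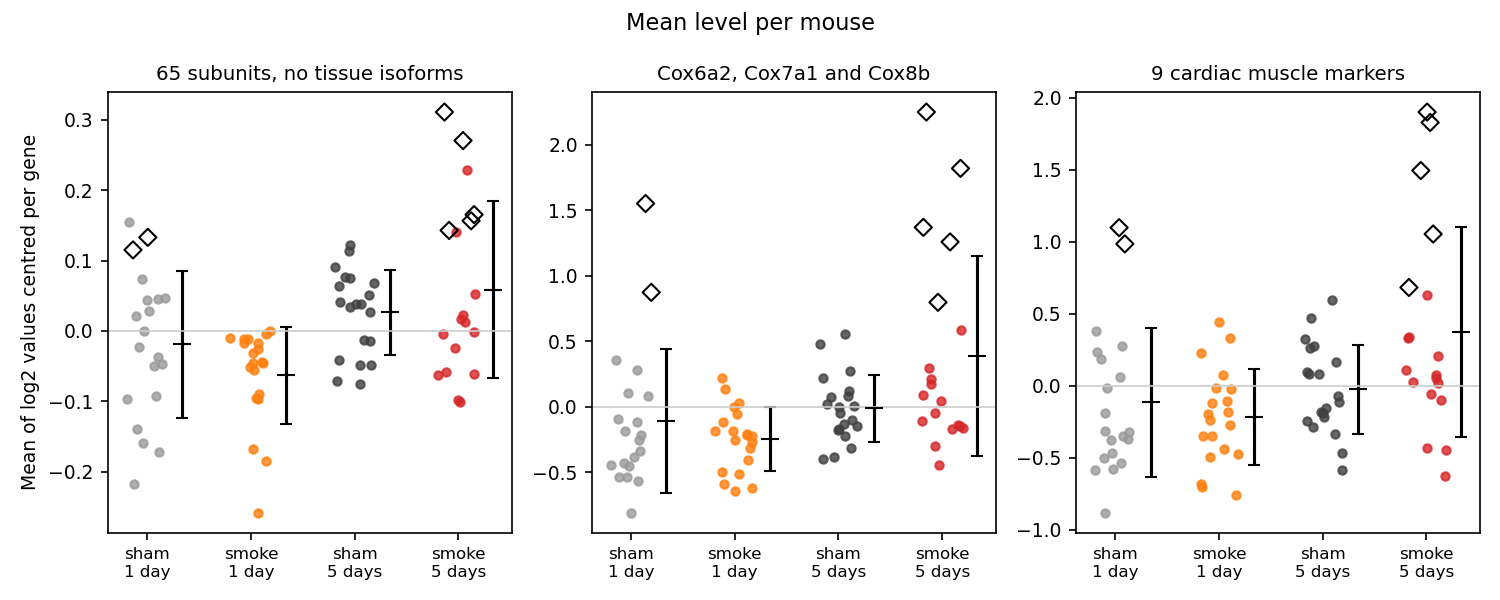
Mean of log2 values centred per gene (y axis) in each mouse for 65 subunits, for the 3 heart isoforms and for 9 cardiac muscle markers, by exposure and duration; bars give mean and SD of each arm. Diamonds mark the 7 mice with a cardiac or skeletal muscle marker mean above 1, 5 of them in the 5-day smoke arm, where they hold 5 of the 6 highest values for the 65 subunits and the 5 highest for the heart isoforms.

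**Figure D4:**
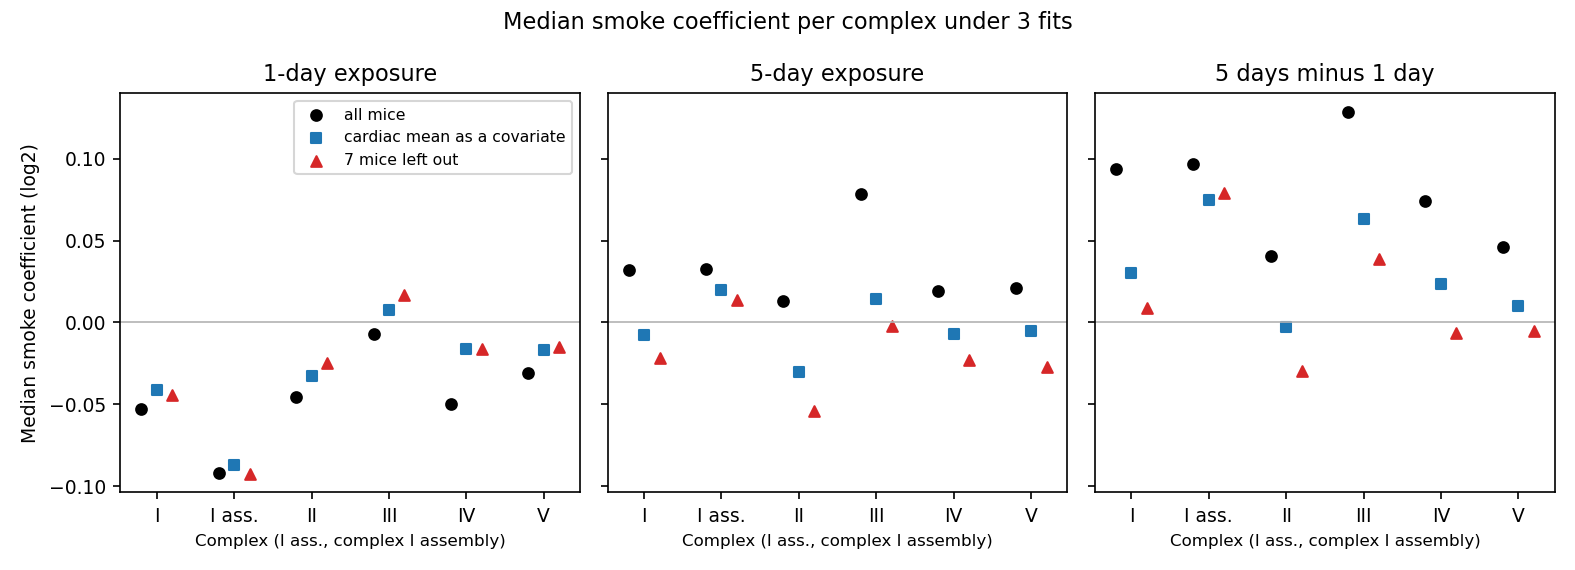
Median smoke coefficient (log2, y axis) of each complex at 1 day, at 5 days and for the difference between durations, with all mice (circles), with the cardiac muscle marker mean as a term (squares) and with 7 muscle-rich mice left out (triangles). At 1 day the medians are negative in all 3 fits except for complex III, which turns positive in 2 of them; at 5 days complexes I, II, IV and V are positive with all mice and negative in both other fits.

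The relation of each member to the cardiac muscle marker mean was then fitted within each duration, with genotype, exposure and sex as further terms. This fit was chosen after the muscle-rich mice had been seen. Its slope is the log2 change of a gene per unit of the marker mean. At 1 day 9 members had a positive slope past the threshold and none a negative one, against 0.488% and 0.00957% of all rows. At 5 days there were 7 and none, against 0.887% and 0.0383% of all rows. Slopes of 75 of 81 members were positive at 1 day (median 0.12, against 0.0075 over all rows) and of 74 at 5 days (median 0.077, against -0.0048). Here too, rows of similar signal to the members were not compared separately.

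The heart isoforms, themselves genes of heart and muscle, had the steepest slopes, so their calls say little new. Cox8b had slopes of 0.99 and 0.98 at 1 and 5 days, Cox7a1 of 0.90 and 0.87, and Cox6a2 of 0.56 and 0.47, all called. The slopes also took in mice rich in skeletal muscle RNA. The highest heart isoform means of the 5-day smoke and 1-day sham arms were 2.25 and 1.55. Those 2 mice had skeletal marker means of 5.63 and 5.30 and cardiac marker means of 0.68 and 0.98. Among subunits made in every cell, the accessory subunit Ndufa10 (0.19 and 0.17) and the catalytic subunit Atp5b (0.17 and 0.11) were called at both durations. The core proteins Uqcrc1 (0.23 at 1 day) and Uqcrc2 (0.12 at 5 days) of complex III, Ndufs1 (0.13 at 5 days) of complex I, and the complex V subunits Atp5g3 (0.20) and Atp5md (0.14 at 1 day) were called at one of them. Cox4i2 (-0.02 and -0.07) and Ndufa4l2 (-0.01 and 0.01) had slopes near 0. Cox8c had slopes of 0.03 and -0.02, but its mean of 3.05 lay below the lowest array median of 4.44, where little slope could be seen. Without the 7 muscle-rich mice 2 members were called at 1 day and none at 5 days, and leaving out single mice gave 6 to 12 and 5 to 20 calls, the 20 without βENaC female replicate 3 of the 5-day smoke arm.

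**Figure D5:**
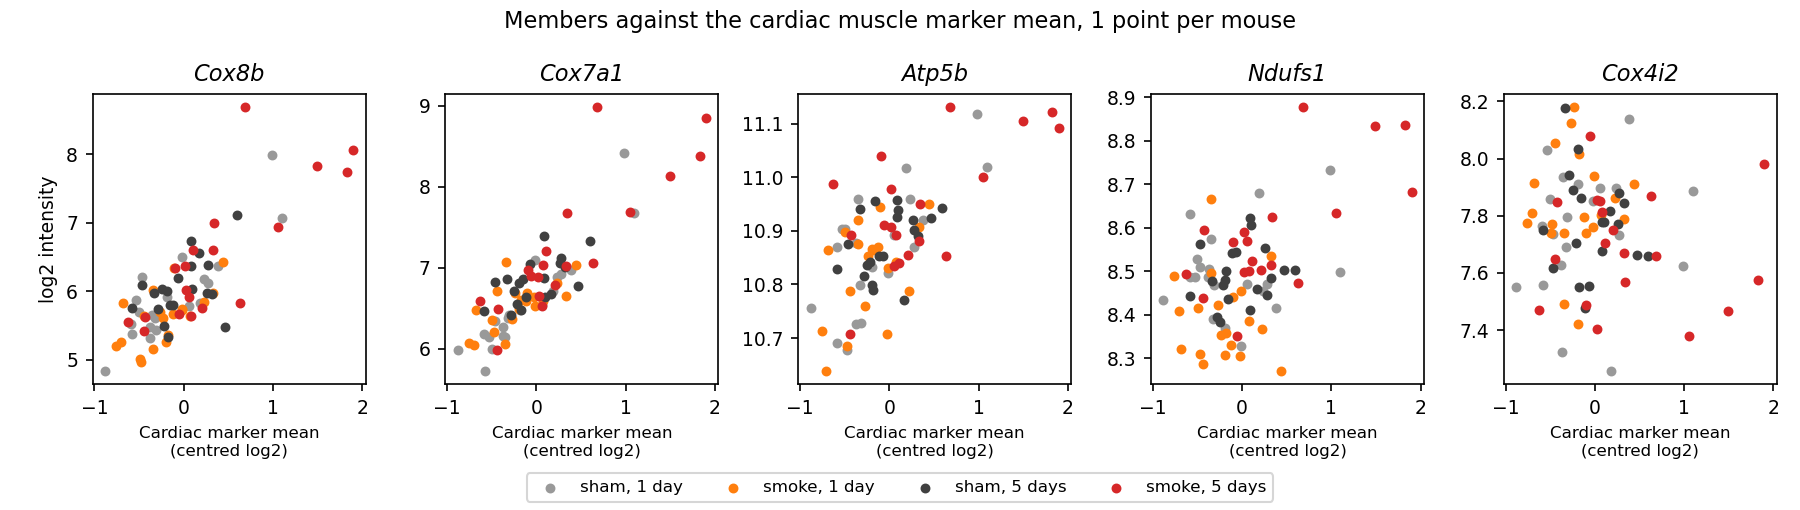
Log2 intensity (y axis) of Cox8b, Cox7a1, Atp5b, Ndufs1 and Cox4i2 against the mean of 9 cardiac muscle markers (x axis, centred log2), 1 point per mouse, coloured by exposure and duration. Cox8b and Cox7a1 climb along the axis in each arm, Atp5b and Ndufs1 reach their highest values toward the right, and Cox4i2 (slopes -0.02 and -0.07) shows no such course.

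Levels of the heart isoforms showed the same mice. Cox8b ranged from 5.43 to 8.69 in the 5-day smoke-exposed mice, with a median of 6.34, and from 5.33 to 7.11 in the sham-exposed mice, with a median of 5.99. Its 3 highest values in the smoke arm, 8.69, 8.06 and 7.82, belonged to WT female replicates 4 and 3 and βENaC female replicate 5. The mean of the 3 heart isoforms was 0.39 ± 0.77 in the 5-day smoke arm and -0.01 ± 0.27 without its 5 muscle-rich mice, against -0.01 ± 0.26 in the sham arm. Those 5 mice were picked by muscle markers and held the 5 highest values of the arm, so this fall followed from the choice. Cox4i2 was more even: it ranged from 7.38 to 8.08 in smoke-exposed and from 7.48 to 8.18 in sham-exposed mice at 5 days, and its exposure coefficients of 0.08 and -0.07 at 1 and 5 days were not called.

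Genes with the most similar course over the 79 mice were read by Pearson correlation, which these mice share with their group and tissue makeup. For Cox8b they were Cox7a1 (0.92) and the muscle genes Ttn (0.86), Tmem182 (0.86), Sln (0.85) and Mb (0.85). For Cox4i2 they were Ndufa4l2 (0.69), Vsnl1 (0.65), Anks1 (0.62), Clstn2 (0.61) and Mfap2 (0.61). Sln is itself 1 of the 9 cardiac markers. With the mean of each of the 16 groups taken out, pairs of subunits correlated with a median of 0.46, and within complexes with 0.41 for complex I, 0.65 for complex II, 0.46 for complex III, 0.50 for complex IV without its tissue isoforms and 0.48 for complex V. Assembly factors of complex I were less alike, at 0.16 among themselves and 0.22 with the subunits they help to assemble. The subunits had a median correlation of 0.36 with the tricarboxylic acid cycle, 0.35 with the cardiac markers, 0.29 with the mitochondrial ribosome and 0.19 with the cytosolic ribosome.

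For genotype 1 of 81 members was called at 1 day, a smaller share than over all rows. Atp5pb, the b subunit in the stator stalk of complex V, was higher in βENaC than in WT mice, and no other member was called, with 3.58% of all rows called higher and 2.29% lower. It ranged from 9.24 to 9.88 in βENaC mice (median 9.41) and from 9.16 to 9.49 in WT mice (median 9.26), and 17 of 20 βENaC mice were above the WT mean of their own exposure and sex. Atp5pb rose by 0.16 (SE 0.040, limma, adjusted p = 0.012), with differences between 0.12 and 0.19 in the 4 combinations of exposure and sex. With the cardiac marker mean in the model 5 members were called higher at 1 day. At 5 days the coefficient of Atp5pb was 0.11 (SE 0.036, limma, adjusted p = 0.058).

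At 5 days 2 of the 81 members, both tissue isoforms, were called lower in βENaC mice. This was a smaller share than the 5.33% of all rows called lower, and 4.85% of all rows were called higher. Cox6b2, the testis isoform of subunit 6B, ranged from 5.67 to 6.06 in βENaC mice and from 5.64 to 6.44 in WT mice, with medians of 5.81 and 6.07, and 12 of 20 WT mice were above every βENaC mouse. It fell by 0.22 (SE 0.052, limma, adjusted p = 0.0028), and the coefficient was -0.25 without the 7 muscle-rich mice, where it was still called. Ndufa4l2, a hypoxia-inducible relative of the complex IV subunit Ndufa4, ranged from 6.93 to 7.53 in βENaC mice and from 7.29 to 7.72 in WT mice, with medians of 7.40 and 7.56. It fell by 0.16 (SE 0.045, limma, adjusted p = 0.014), and 17 of 19 βENaC mice were below their own WT mean. Without the 7 mice its coefficient was -0.14 (limma, adjusted p = 0.056). None of the 8 tissue isoforms had a positive genotype coefficient at 5 days (median -0.18), whereas the other 11 genes of complex IV had a median of 0.00074 and the 65 subunits one of -0.02. Among the 8, Cox7b2 and Cox8c had means of 4.01 and 3.05 over all mice, below the lowest array median of 4.44. The heart isoforms were highest in muscle-rich mice, and Cox8b reached 8.69 in WT and 7.82 in βENaC mice at 5 days. The median of the 8 was not tested without those mice.

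Markers of other cells were also read for genotype at 5 days. All 5 alveolar macrophage markers had positive coefficients (median 0.63, 3 called higher), and the list mean lay between -0.38 and 1.01 in βENaC and between -0.40 and 0.14 in WT mice. None of the 9 cardiac markers had a positive coefficient (median -0.28, none called), and their mean lay between -0.63 and 1.49 against -0.44 and 1.90. The part of these cells in the values of Cox6b2 and Ndufa4l2 was not tested. For the difference of the genotype coefficient between durations, limma called 0% of all rows and no member. An unadjusted p under 0.05 was found for 6.07% of all rows and 6 members, and 73 of 81 members had a negative value. The share of negative values over all rows is not given here. Subunits correlate with each other (median 0.46), so their signs are not independent. The muscle-rich mice of the 1-day arms were all WT, and the part of muscle RNA in this count was not tested.

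At 1 day 8 of the 81 members were higher in males than in females and none was lower. Of all rows 7.82% were called higher in males and 2.07% lower, so the share of members called higher was near that of all rows. The 8 members included Ndufv3 and Ndufa8 of complex I (0.20 and 0.12), the assembly factor Ndufaf3 (0.11), Uqcrc1 and Cyc1 of complex III (0.19 and 0.18), Ndufa4l2 (0.19) and Atp5d, the delta subunit of complex V (0.13). Uqcrc1, a core protein of complex III, ranged from 8.66 to 9.31 in females and from 9.01 to 9.55 in males, with medians of 9.01 and 9.14 (limma, adjusted p = 0.0025). For Uqcrc1 and Ndufv3 19 of 20 males were above the female mean of their own genotype and exposure, and 10 and 7 of 20 females were below every male. The median over the 81 members was 0.050 and 61 were positive, against 0.0085 over all rows.

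All 9 cardiac markers had positive sex coefficients at 1 day (median 0.27, 1 called higher), with list means of -0.68 to 1.10 in males and -0.88 to 0.33 in females, and 8 of 8 alveolar type 2 markers were positive with 5 called, with list means of -0.0024 to 0.17 and -0.20 to 0.08. With the cardiac marker mean in the model 2 members were called, and with the 7 muscle-rich mice left out 4. With the mean of the cytosolic ribosome in the model 1 was called. Quantile normalisation gave 3 higher and 3 lower and cyclic loess 4 higher and 3 lower, so the one-sided split of these calls did not hold under another scaling. At 5 days limma called no member for sex, 0.472% and 0.144% of all rows were called higher and lower, and 5 members had an unadjusted p under 0.05, against 11.3% of all rows. The sex difference between durations was called by limma for none of the members, with 0.0287% and 0.625% of all rows called higher and lower, and 9 members had an unadjusted p under 0.05, against 11.1% of all rows.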

How the data were processed

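Whole-lung RNA was hybridised to Affymetrix mouse Gene 2.1 arrays. Per the labels and the study's methods, the authors summarised the arrays with RMA (Affymetrix Expression Console 1.4 and Partek 6.6 are named) and deposited log2 intensities, 31350 rows for 79 mice. Values ran from 1.98 to 13.4, array medians from 4.44 to 4.55, and the lowest correlation between 2 arrays was 0.965. The number of arrays limits the precision. Gene symbols came from the study's tables (2535 rows) or the RefSeq gene table (19302), and 9513 rows stayed unnamed. Mice were grouped by their titles. For each duration, limma 3.58.1 in R 4.3.3 was fitted over all rows with genotype, exposure and sex, after tests on simulated data, and differences between durations came from 1 model of all mice. No filter was applied. P-values measure the spread between mice. The members and lists were chosen with earlier results of these data known. Named genes were the 2 called members of largest coefficient per complex, direction and comparison (1 called member is not reported here by name), the tissue isoforms and their counterparts, complex II and key catalytic subunits; naming the highest and lowest member by level was dropped because probes cannot be compared. The slope on the cardiac marker mean and the 2 steps that leave out muscle-rich mice were chosen after seeing the data. Promoters were RefSeq windows of GRCm38.p6. Figures were drawn with matplotlib 3.10.9.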

Additional observations from a re-analysis of the deposited data

Results flagged for a closer look

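The smoke response of Ndufs1 differed between durations by 0.19 on the log2 scale, with the values and the dependence on 7 mice given above. Among 112 scores (the centred mean of a complex or of the heart isoforms in 1 group of mice), 7 held a mouse far from its group, and chance alone gives about 1 in 20. In the 5-day smoke-exposed WT males replicate 2, one of the muscle-rich mice, was far above the rest for 2 scores, with 1.37 for the heart isoforms (next mouse -0.05) and 0.16 for complex II (next -0.02). Replicate 1 of the 1-day smoke-exposed WT males was high for the heart isoforms at 0.22 (next -0.19). Replicate 1 of the 5-day sham-exposed WT males was high for complex I at 0.13 (next 0.06). Low mice were replicate 3 of the 1-day smoke-exposed βENaC females for complex I at -0.08 (next -0.02), and replicate 3 of the 1-day smoke-exposed βENaC males for complex III at -0.09 (next 0.01) and complex V at -0.08 (next -0.01).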

How the results depend on the processing

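None of 20 coefficients of called members reversed its sign under any of 14 other settings of the processing, 2 more chosen after seeing the data or the leaving out of each of 79 mice in turn, although list medians crossed 0 as given above. The 25 counts of called members moved as follows where they did. For lower at 1-day exposure (7), array weights gave 11, the 1.3-fold threshold 0, leaving out the 2 mice with skeletal muscle RNA 4 and the 7 muscle-rich mice 1, and single mice 4 to 11 (4 without βENaC sham male 1, WT sham male 2 or 4, or WT smoke female 1 or 2; 11 without βENaC smoke female 5). Without single mice Ndufa9 lost its call in 20 of 40 fits, Cox7b in 19, and Ndufs1 and Ndufaf7 in 6 each. For higher at 5-day exposure (1), array weights gave 2, and the 1.3-fold threshold, the cardiac mean as a covariate and the 7 mice left out each gave 0, with 1 to 2 without single mice (2 without WT smoke female 2) and, for lower (0), 0 to 1 (1 without βENaC smoke female 2). For the exposure by duration difference (1 higher), ordinary least squares without moderation and median centring gave 2 each, cyclic loess 4, leaving out the lowest 30% of rows 3, array weights 4, and the 1.3-fold threshold, the cardiac mean and the 7 mice left out 0 each, with 1 to 3 without single mice, 21 of which raised it. For higher by genotype at 1 day (1), trend and robust moderation gave 2, the cardiac mean 5, the 7 mice left out 2 and the 1.3-fold threshold 0, with 1 to 2 without single mice (2 without any of 6 mice). For genotype at 5 days (0 higher, 2 lower), higher counts were 1 under median centring, quantile, cyclic loess, the lowest 30% left out, trend and robust moderation, the cardiac mean and the 2 mice left out, 3 with the ribosome mean and 2 without the 7 mice, and lower counts were 0 at 1.3-fold and 1 without the 7 mice. Single mice gave 0 to 2 higher (7 mice raised it) and 2 to 4 lower (4 without βENaC smoke female 5). For sex at 1 day (8 higher, 0 lower), higher counts were 3 under quantile, 4 under cyclic loess, 0 at 1.3-fold, 2 with the cardiac mean, 1 with the ribosome mean and 4 without the 7 mice, and lower counts 1 under median centring and 3 under quantile and cyclic loess, with 6 to 11 higher and 0 to 1 lower without single mice (1 without WT smoke female 1 or WT smoke male 4). For slopes on the cardiac mean, the 5-day count (7) was 13 with array weights and 0 without the 7 mice, and the 1-day count (9) was 2 without the 7 mice. The cause of these shifts was not tested. With the replicate number as a block, 7 members were lower at 1 day and 1 higher at 5 days, Ndufs1 differed between durations by 0.19 (limma, adjusted p = 0.024), 3 were lower by genotype at 5 days, 10 higher by sex, and 6 had a cardiac slope at 1 day. Nothing in the labels says that a number marks shared mice or days, and deviations of same-numbered mice of different groups had correlations as low as -0.276. At 1 day 18 of 40 mice correlated best with their own number, against 8 expected if numbers carried nothing, a hint of shared variation, and at 5 days 6 of 39, against 6.7 expected. The number of mice and the array's signal range limit what small changes can be seen.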
